A study of Mus musculus with 4 samples.

Results

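Ppara and 8 genes of mitochondrial fatty acid oxidation were followed across lung tumors of KP mice, as the rows of the deposited raw count table whose gene symbol was Ppara, Cpt1a, Cpt2, Slc25a20, Acadm, Acadl, Acadvl, Hadha or Hadhb. All 9 genes were found, among 39017 rows in all. KP mice develop lung adenocarcinoma after Cre recombinase reaches lung cells, and their p53Fl/Fl alleles are removed in the infected cells. The data came from 4 macrodissected lung tumors of male C57BL/6 KP mice, all in 1 group called Control, each tumor taken 22 weeks and 5 days after 1500 units of a lentivirus expressing Cre from the PGK promoter had been given into the lungs. All 4 samples were labelled heterozygous for a floxed allele (fl/wt) of a gene the labels do not name, whereas the columns of a second deposited table name them WT, and no further treatment was given in the labels. PGK is a broadly active promoter, so recombination was not restricted to 1 lung cell type, and the bulk RNA also held the host cells of the tumor. The labels do not say in words that the tumors came from different animals, so every p-value below applies to these 4 samples only. Each tumor had 1 library, so library preparation cannot be told apart from differences between tumors. The study asked how lung tumors use glucose transporters, and with 1 group there was no treatment to compare.

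Long-chain fatty acids enter the mitochondrial matrix as carnitine esters. Cpt1a on the outer membrane makes the ester, Slc25a20 carries it across the inner membrane and Cpt2 turns it back into a CoA ester. The chain is then shortened in cycles that open with an acyl-CoA dehydrogenase (Acadvl, Acadl or Acadm, for very long, long and medium chains), and for long chains the mitochondrial trifunctional protein, built from Hadha and Hadhb, does the remaining steps. Ppara is a nuclear receptor that is activated by fatty acids, pairs with retinoid X receptors and switches on many of these genes, best known from liver and heart. Alveolar type 2 cells, the lung cells that make surfactant lipid, also handle large amounts of fatty acid.

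The sequences below are shown because the trifunctional protein genes share a promoter region and because Ppara binds DNA at repeats of a known hexamer. Each is a RefSeq window on GRCm38.p6 that runs from 250 bases before the annotated transcription start to 50 bases after it, and all 9 genes had 1. Hadha on the minus strand and Hadhb on the plus strand of chromosome 5 lie head to head, with 85 bases between the annotated genes and 272 bases between the RefSeq starts, and their windows share 228 bases. In the window of Hadhb (chr5:30155003-30155302, plus strand) capitals mark the bases that also belong to the window of Hadha.
Hadhb: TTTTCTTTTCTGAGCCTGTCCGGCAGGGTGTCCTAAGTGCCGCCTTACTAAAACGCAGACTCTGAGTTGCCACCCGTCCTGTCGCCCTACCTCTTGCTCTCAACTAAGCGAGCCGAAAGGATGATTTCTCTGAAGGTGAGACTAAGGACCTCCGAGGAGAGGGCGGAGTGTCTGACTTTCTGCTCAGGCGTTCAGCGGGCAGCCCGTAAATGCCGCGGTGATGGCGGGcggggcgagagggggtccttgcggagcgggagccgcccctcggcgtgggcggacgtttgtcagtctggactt

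The hexamer AGGTCA, the core element that many nuclear receptors recognise, was searched on both strands and found in the windows of Acadm, Acadvl and Cpt1a, 3 of 9 genes, against 16.3% of all 32851 windows. The match began 249 bases before the start in Acadm (chr3:153944594-153944893, minus strand), 87 before it in Acadvl (chr11:70015379-70015678, minus strand) and 94 before it in Cpt1a (chr19:3323051-3323350, plus strand), and capitals mark it.
Acadm: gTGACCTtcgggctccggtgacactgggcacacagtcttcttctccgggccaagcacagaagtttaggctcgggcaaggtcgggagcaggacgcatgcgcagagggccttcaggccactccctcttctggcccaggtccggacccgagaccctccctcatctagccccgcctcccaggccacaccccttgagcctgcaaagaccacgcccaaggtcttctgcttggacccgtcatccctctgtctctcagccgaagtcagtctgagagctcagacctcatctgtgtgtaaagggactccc
Acadvl: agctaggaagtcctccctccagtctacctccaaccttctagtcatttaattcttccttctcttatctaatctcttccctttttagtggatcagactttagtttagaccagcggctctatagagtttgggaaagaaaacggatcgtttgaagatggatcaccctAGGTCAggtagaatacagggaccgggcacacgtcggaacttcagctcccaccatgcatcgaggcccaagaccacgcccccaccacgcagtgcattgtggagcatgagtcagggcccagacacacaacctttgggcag
Cpt1a: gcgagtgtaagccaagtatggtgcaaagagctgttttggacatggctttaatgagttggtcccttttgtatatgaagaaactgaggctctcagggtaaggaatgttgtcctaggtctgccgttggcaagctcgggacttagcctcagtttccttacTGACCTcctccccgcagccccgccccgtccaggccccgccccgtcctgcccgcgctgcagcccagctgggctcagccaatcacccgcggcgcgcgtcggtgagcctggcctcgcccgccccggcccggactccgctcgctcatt

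The looser direct repeat AGGNCANAGGNCA, the form PPAR and retinoid X receptor pairs bind, was in the window of 0 of 9 genes, against 0.381% of all windows. Ppara itself (chr15:85735526-85735825, plus strand) held 1 copy of the palindrome GCGCATGCGC, known as a binding element of NRF1, a factor of mitochondrial gene expression. The copy began 31 bases before the start and is in capitals below, and 0.971% of all windows held one. These matches describe letters in a window, and no binding was measured.
Ppara: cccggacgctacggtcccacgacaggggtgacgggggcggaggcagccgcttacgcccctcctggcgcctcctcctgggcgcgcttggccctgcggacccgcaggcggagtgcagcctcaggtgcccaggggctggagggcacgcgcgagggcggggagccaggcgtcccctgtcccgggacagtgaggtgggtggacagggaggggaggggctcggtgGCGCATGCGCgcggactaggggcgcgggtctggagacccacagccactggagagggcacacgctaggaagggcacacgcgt

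Levels are given as CPM, counts per 1e+06 of the effective library size (total count times TMM factor). Total counts were 8151613 to 8799007 per tumor, a count of 3 equals 0.330 to 0.370 CPM, and 14225 genes averaged 1 CPM or more and were tested. Alveolar type 2 markers were abundant in all 4 libraries, with a summed level of 32860 CPM in tumor 1 and 53158 to 60875 CPM in the others, so the defining markers of the tissue were present. The 6 adipocyte markers, which include Adipoq and Plin1, were at or under 3 counts in all tumors, with a summed level of at most 0.123 CPM. Of 7 heart and skeletal muscle markers, Actn2, Acta1 and Mb were at or under 3 counts in all tumors, and the summed level was 4.57 to 5.35 CPM. The muscle myosin gene Myh7, outside that list, reached 132 to 596 CPM. Of 5 hepatocyte markers, Serpina1c and Cyp2e1 had 0 counts, while the others summed to 28.3 CPM in tumor 3 and 225 to 492 CPM in the rest, mostly from Alb. In bulk RNA, fewer cells of a type and less RNA per cell cannot be told apart.

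Ppara was scarce. Its counts were 12, 25, 16 and 31 in tumors 1 to 4, or 1.32, 2.90, 1.97 and 3.69 CPM (mean 2.47 ± 1.04, SD, n = 4), and the gene lies at chr15:85734983-85802819 on the plus strand (ENSMUSG00000022383). The exact 95% Poisson interval, which covers counting error only, was 0.682 to 2.31 CPM in tumor 1 and 2.51 to 5.23 CPM in tumor 4, so these intervals did not overlap, while those of tumors 2 and 3 (1.88 to 4.29 and 1.13 to 3.21 CPM) overlapped both. The highest tumor had 2.79 times the lowest, a larger ratio than for any of the 8 other genes. The spread was beyond counting noise (edgeR Poisson deviance, adjusted p = 0.0121 over all genes tested), but the adjusted p was 0.158 without tumor 1 and 0.085 without tumor 4. Its SD of log2 CPM was 0.63, and 60.8% of the 2113 genes within 2-fold of its level had a smaller one.

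**Figure D1:**
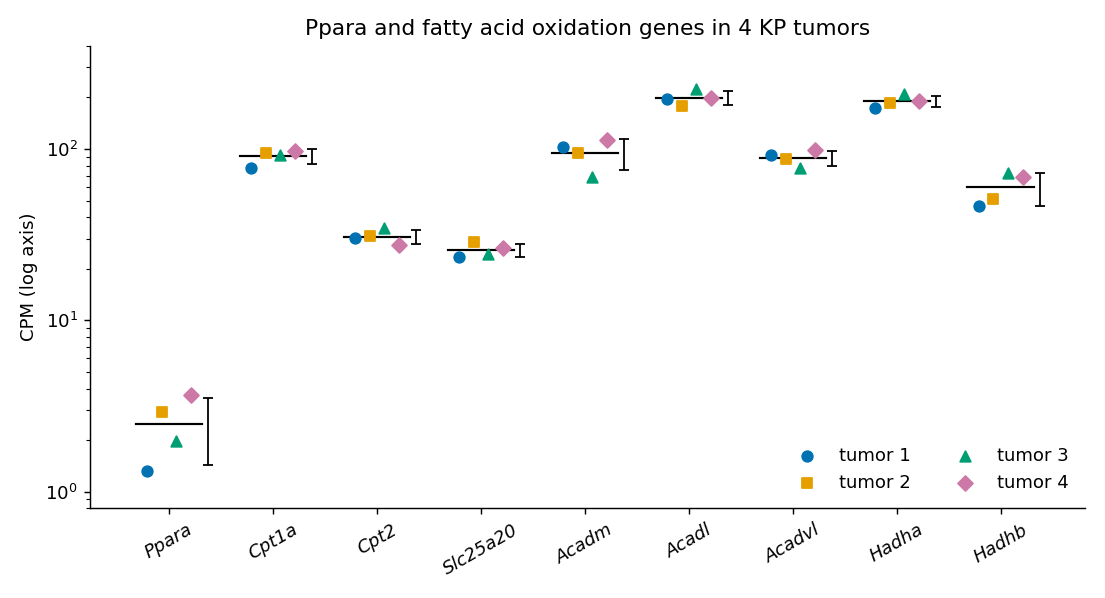
CPM of each gene in tumors 1 to 4 on a log axis (points), with the mean (horizontal line) and the SD over 4 tumors (bar beside it). Ppara sits at 1.32 to 3.69 CPM, below all values of the 8 others, which lie between 23.3 and 223 CPM.

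The 3 genes of the carnitine shuttle stayed close to 1 level in all 4 tumors, with ratios of 1.23 to 1.26 between the extremes. Cpt1a, the rate-controlling step of entry, had 77.8, 95.3, 91.8 and 97.6 CPM (mean 90.6 ± 8.88, SD, n = 4; chr19:3322334-3385733, plus strand). Tumor 1 was the lowest and the other tumors lay close together, and this spread was beyond counting noise (edgeR Poisson deviance, adjusted p = 5.1e-05), though not without tumor 1 (adjusted p = 0.554). Cpt2 had 30.1, 31.2, 34.4 and 27.6 CPM (mean 30.9 ± 2.83, SD, n = 4; chr4:107903981-107923610, minus strand). Slc25a20 had 23.3, 28.7, 24.3 and 26.4 CPM (mean 25.7 ± 2.38, SD, n = 4; chr9:108662088-108684641, plus strand). For Cpt2 and Slc25a20 the spread was not separable from counting noise at this depth (edgeR Poisson deviance, adjusted p = 0.113 and 0.149). Slc25a20 shares a stretch of 366 nt with Tmem72, which had 0 counts, and with several unlisted genes, so its count is uncertain if such reads were discarded.

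The acyl-CoA dehydrogenases split in tumor 3. Acadl had 196, 179, 223 and 199 CPM (mean 199 ± 18.1, SD, n = 4; chr1:66830839-66863277, minus strand), highest in tumor 3. Acadm had 103, 94.9, 68.5 and 114 CPM (mean 94.9 ± 19.2, SD, n = 4; chr3:153922357-153944632, minus strand), lowest in tumor 3 and 1.66 times as high in tumor 4. Acadvl had 92.0, 87.1, 77.5 and 98.8 CPM (mean 88.9 ± 8.97, SD, n = 4; chr11:70010183-70015411, minus strand), with the same tumors lowest and highest as Acadm. All 3 varied beyond counting noise (edgeR Poisson deviance, adjusted p = 2.08e-08, 5.7e-21 and 9.03e-05), and for Acadvl the adjusted p was 0.0652 without tumor 3. Acadvl shares 1151 of its exon bases (42.9%) with Dvl2 on the opposite strand, a Wnt signalling gene with at most 18.3 CPM, and the strand setting of the counting is not given in the sources used here.

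The trifunctional protein genes both had their lowest value in tumor 1 and their highest in tumor 3. Hadha, the alpha subunit, had 174, 186, 209 and 191 CPM (mean 190 ± 14.8, SD, n = 4; chr5:30118304-30155162, minus strand). Hadhb, the beta subunit, had 46.2, 51.1, 72.6 and 68.7 CPM (mean 59.7 ± 12.9, SD, n = 4; chr5:30155248-30184593, plus strand), with tumors 3 and 4 above tumors 1 and 2 and a ratio of 1.57 between the extremes. Both varied beyond counting noise (edgeR Poisson deviance, adjusted p = 4.46e-06 and 3.93e-15). The count of Hadhb is uncertain, because the processed pseudogene Gm13910 on chromosome 2 matches it over 1428 nt, of which 1425 are identical. Gm13910 was listed with 491, 453, 553 and 541 counts, 48.3 to 53.9% of the sum of both. With its counts added, Hadhb came to 100.2, 104, 141 and 133 CPM (mean 119 ± 20.5, SD, n = 4), still lowest in tumor 1 and highest in tumor 3. Hadhb also shares a stretch of 1426 nt at 97.6% identity with an unlisted gene, so this sum stays uncertain if such reads were discarded. The ratio of Hadha to Hadhb in CPM was 3.27 ± 0.506 (SD, n = 4), and 1.61 ± 0.178 with Gm13910 added.

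Of the 9 genes, 7 varied between tumors beyond counting noise, or 77.8%, against 76.7% of all genes tested, so the share was near the background in this fit. No gene of the 9 had 1 tumor apart from the rest by Dixon's ratio, where 5.86% of all genes did. The size of the spread was small: the median SD of log2 CPM was 0.15 over the 9 genes and 0.29 over all genes tested (0.25 over those averaging 10 CPM or more). Against genes within 2-fold of their own level, 14.1 to 24.9% had a smaller SD than Hadha, Slc25a20, Cpt2, Acadl, Acadvl and Cpt1a. For Hadhb and Acadm that share was 72.7 and 74.4%, so these 2 genes lay in the more variable part of their level class.

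**Figure D2:**
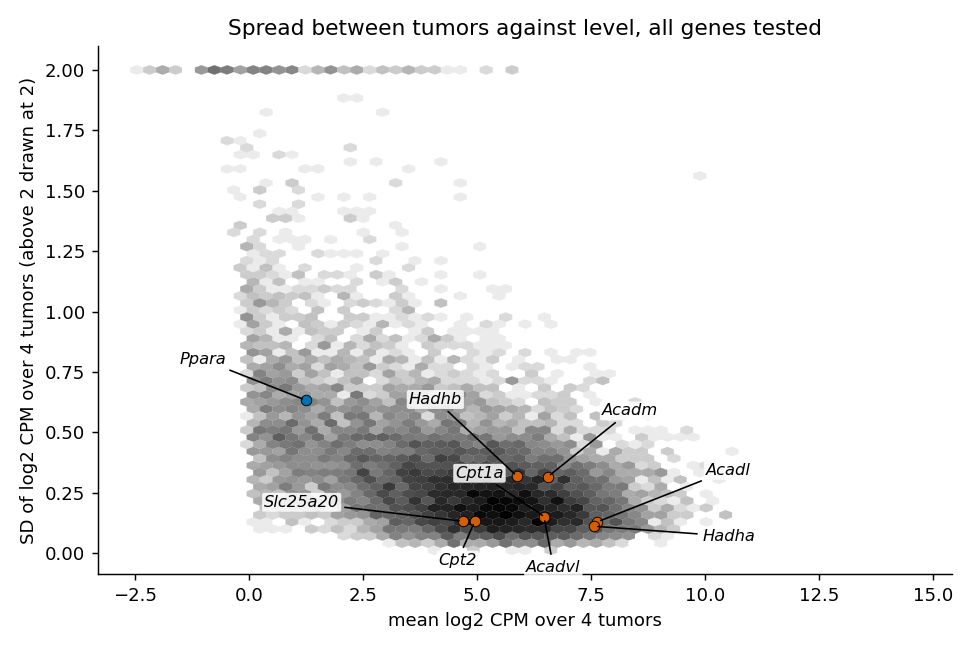
SD of log2 CPM over 4 tumors against mean log2 CPM for all 14225 genes tested (grey cells, darker for more genes, SD above 2 drawn at 2), with the 9 genes as colored points. Of the orange points, 6 lie at an SD of 0.11 to 0.15, Acadm and Hadhb at 0.32, and Ppara (blue) at 0.63.

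The genes did not move as 1 block across tumors. Tumor 3 was highest for Cpt2, Acadl, Hadha and Hadhb and lowest for Acadm and Acadvl. Tumor 1 was lowest for Cpt1a, Slc25a20, Hadha and Hadhb, as for Ppara, and highest for none. Among all genes tested, 30.4% were lowest and 31.4% highest in tumor 1, and 32.5% were lowest and 30.2% highest in tumor 3. The differences partly cancelled, and the summed level of the 8 genes was 742, 754, 802 and 823 CPM in tumors 1 to 4 (mean 780 ± 38.6, SD, n = 4), a ratio of 1.11 between the extremes. Cell markers differed between the same tumors. All 6 alveolar macrophage markers were highest in tumor 3, with summed levels of 220, 240, 1056 and 514 CPM. Pan-leukocyte markers summed to 499 CPM in tumor 1 and 689 to 806 CPM in the others. General macrophage markers summed to 1884 CPM in tumor 1 and 4207 to 6834 CPM in the others. Of these 5 markers, 3 were lowest in tumor 1, 1 in tumor 2 and 1 in tumor 4, while 4 were highest in tumor 3. Epithelial markers summed to 3972 CPM in tumor 1 and 2488 to 2632 CPM in the others. Of these 4 markers, 3 were highest in tumor 1 and 1 was lowest there. The part of all these cell markers in the differences between tumors was not tested.

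**Figure D3:**
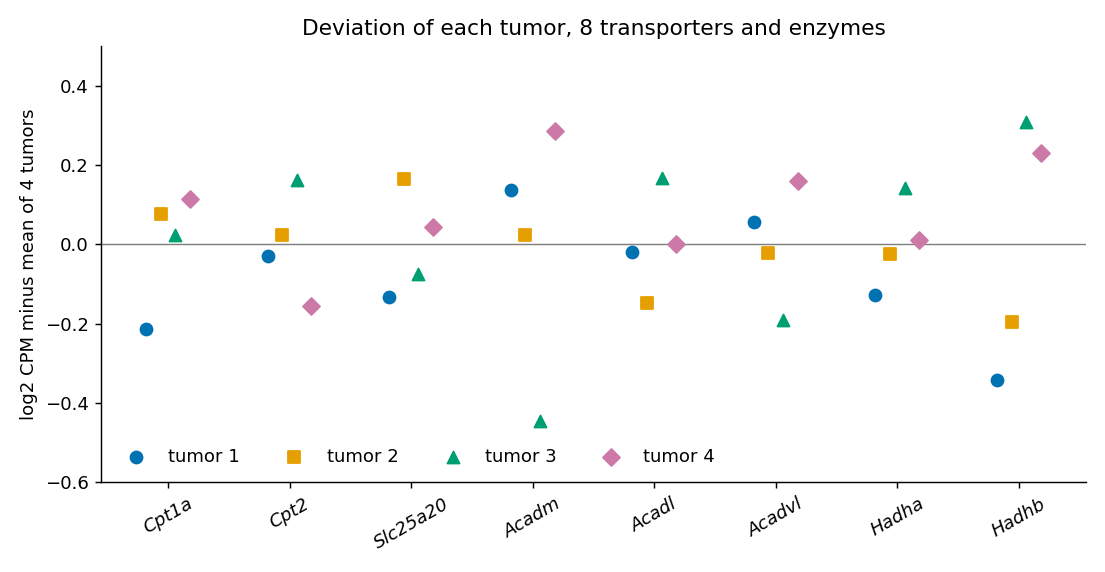
Log2 CPM of each of the 8 transporter and enzyme genes in each tumor minus the gene's mean over 4 tumors. Tumor 3 (triangles) lies above the mean for Cpt2, Acadl, Hadha and Hadhb and below it for Acadm (-0.45) and Acadvl (-0.19), and tumor 1 (circles) lies below it for 6 of 8 genes.

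To compare levels between genes, CPM was divided by the summed length of all exons of the gene, in kilobases. On this scale Acadl was highest with 99.5 CPM per kilobase, followed by Acadvl with 33.1, Acadm with 24.3, Hadha with 21.8, Cpt2 with 12.9, Cpt1a with 11.9, Hadhb with 9.05, Slc25a20 with 5.30 and Ppara with 0.644. Of the 8 pairs of neighbors in this order, 6 kept 1 sign in all 4 tumors with a mean log2 difference above its SD. Acadm and Hadha did not differ beyond their spread (log2 difference per kilobase 0.13 ± 0.41, SD, n = 4, two-sided exact permutation test by sign flips, p = 0.625), and neither did Cpt2 and Cpt1a (0.12 ± 0.21, p = 0.375, same exact test). The smallest p that 4 tumors allow is 0.125, so no pair could pass 0.05. The length used moved the middle of the order: with the longest transcript it read Acadl, Hadha, Acadm, Acadvl, Cpt1a, Hadhb, Cpt2, Slc25a20 and Ppara, so with each of the lengths Acadl was first and Ppara last.

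**Figure D4:**
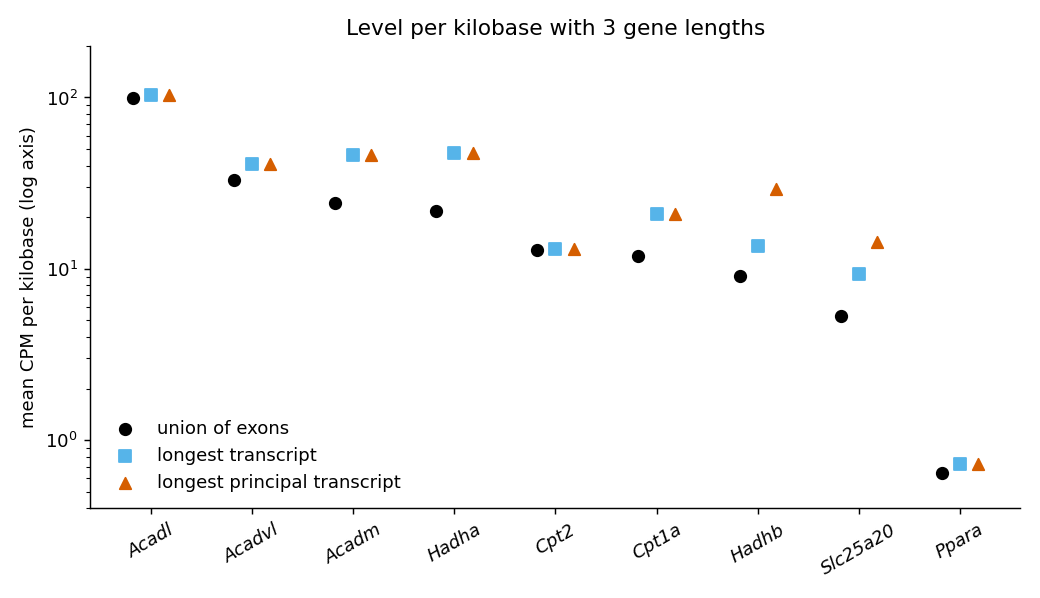
Mean CPM per kilobase over 4 tumors on a log axis, with the length taken as all exons together (circles), the longest transcript (squares) or the longest transcript marked principal in the annotation (triangles). Acadl stays near 100 and Ppara below 1 with every length, while Hadhb runs from 9.05 to 29.1.

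Within gene families, Ppara was the lowest of the PPAR receptors. Its log2 level per kilobase minus that of Ppard, a broadly expressed relative, was -3.67, -2.43, -2.53 and -1.64 in tumors 1 to 4 (mean -2.57 ± 0.84, SD, n = 4). Against Pparg, the receptor of fat cells and alveolar macrophages, it was -5.86, -4.59, -5.01 and -4.01 (mean -4.87 ± 0.78, SD, n = 4), so Ppara stood 29.2-fold below Pparg in the geometric mean. The mean difference from Ppard was -3.41 with the longest transcript and -3.60 with the longest principal transcript. In CPM, Ppard was 34.3, 31.1, 23.0 and 22.8 and Pparg 61.3, 54.7, 50.3 and 46.5, both highest in tumor 1, where Ppara was lowest.

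By the counts listed, Cpt1a was the main carnitine palmitoyltransferase 1. Its brain relative Cpt1c had 11.6, 3.25, 1.97 and 3.92 CPM, and Cpt1a was above it per kilobase by 3.98 ± 1.18 (log2, SD, n = 4). The muscle form Cpt1b had 2, 0, 2 and 1 counts, and against 3 counts of Cpt1b per library Cpt1a was at least 104-fold higher per kilobase in every tumor. Cpt1b shares a stretch of 1841 nt at 100% identity with an unlisted gene, so this bound is uncertain if such reads were discarded. Among the dehydrogenases, Acadl was above Acadm by 2.06 ± 0.41, above Acadvl by 1.59 ± 0.24 and above the short-chain enzyme Acads by 2.63 ± 0.37 (log2 per kilobase, SD, n = 4). With the longest transcript, principal or not, Acadl was above Acadm by 1.19 and above Acadvl by 1.35. The difference of Acadl over Acadm was 2.67 in tumor 3 and 1.77 to 1.90 in the others. Hadha was above Hadhb by 1.29 ± 0.22 per kilobase, or 0.28 ± 0.16 with the counts of Gm13910 added to Hadhb (log2, SD, n = 4). With the longest principal transcript the difference was 0.72. That length and the added counts were not combined, so the order of Hadha and Hadhb is uncertain. Acadm minus Acadvl was -0.47 ± 0.17 and Slc25a20 minus Cpt2 was -1.28 ± 0.21 (log2 per kilobase, SD, n = 4). Of the 11 family comparisons, 10 had 1 sign in 4 of 4 tumors, each with the smallest p possible (two-sided exact permutation test by sign flips, p = 0.125, adjusted p = 0.138), and Cpt1a minus Cpt2 did not (-0.12 ± 0.21, exact p = 0.375). Acadm minus Acadvl turned to 0.16 and Cpt1a minus Cpt2 to 0.69 with the longest transcript, and Slc25a20 minus Cpt2 to 0.15 with the longest principal transcript, so these orders depend on the length used.

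The other genes of the pathway were read from 8 lists with 92 genes. Of these, 78 averaged 1 CPM or more and 65 of them varied beyond counting noise (83.3%, against 76.7% of all genes tested), with a median SD of log2 CPM of 0.30. All 17 other mitochondrial oxidation genes varied. Per kilobase the highest were Hsd17b10, an enzyme of branched-chain and short-chain oxidation (99.9), the electron carrier subunit Etfb (77.7) and the thiolase Acaa2 (69.9). Etfb shares a stretch of 626 nt at 99.7% identity with an unlisted gene, so its count is uncertain if such reads were discarded. Hsd17b10 reached 208 CPM in tumor 3 and 96.7 to 111 CPM in the others. Hadh, the dehydrogenase for shorter chains, had 162, 106, 90.0 and 146 CPM, and Eci1, an enoyl-CoA isomerase, 54.6, 38.7, 29.1 and 40.1 CPM, both lowest in tumor 3 like Acadm.

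Among carnitine genes, 4 of the 6 tested varied. Crat, which moves acetyl groups on to carnitine, had 41.4, 51.2, 66.0 and 55.5 CPM, Aldh9a1 of carnitine synthesis had 48.7 to 66.6 CPM, and the carnitine importer Slc22a5 had 16.8 to 20.7 CPM with no spread beyond counting noise (edgeR Poisson deviance, adjusted p = 0.335). Slc22a5 shares a near-identical stretch with Slc22a21. The carnitine synthesis genes Bbox1 and Tmlhe were at or under 3 counts in all tumors. Tmlhe had 0 counts and lies on a scaffold outside the main chromosomes. Whether the alignment covered that scaffold is not given in the sources used here.

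For uptake and activation, 9 of 12 tested genes varied. The fatty acid translocase Cd36 had 1039 CPM in tumor 1 and 1801 to 1891 CPM in the others, and the acyl-CoA synthetase Acsl4 had 890 to 1168 CPM. The fatty acid binding protein Fabp5 had 1088, 461, 587 and 385 CPM, and Fabp4 77.2, 6.97, 5.68 and 11.1 CPM, both highest in tumor 1. The lipase Lpl had 96.9 to 197 CPM. Fabp5 has the near-identical pseudogene Gm6166, with up to 158 CPM. Fabp3, the heart fatty acid binding protein, and the liver transporter Slc27a5 were at or under 3 counts in all tumors.

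Malonyl-CoA, made by acetyl-CoA carboxylases and removed by Mlycd, is the inhibitor of Cpt1a. All 3 genes varied and were highest in tumor 3. Tumor 1 was lowest for Acaca, close to tumor 4 for Acacb (63 counts in both) and level with tumor 4 for Mlycd. Acaca had 60.1, 145, 152 and 136 CPM, Acacb, the mitochondrial form, had 6.93, 13.0, 19.4 and 7.49 CPM, and Mlycd had 22.0, 25.1, 37.4 and 22.0 CPM. Acaca shares a stretch of 6118 nt at 99.2% identity with an unlisted gene, so its count is uncertain if such reads were discarded.

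Of 15 peroxisomal genes tested, 11 varied. The highest per kilobase were the lipid transfer protein Scp2 (81.2), the bifunctional enzyme Hsd17b4 (45.4) and the transporter Abcd3 (43.6). Scp2 had 208, 359, 383 and 179 CPM, and its pseudogene Scp2-ps2, aligned over 1371 positions with 1365 identical, was listed at 71.0 to 127 CPM, so the count of Scp2 is uncertain. Acox2 of bile acid side-chain oxidation had 31.2 CPM in tumor 2 and 8.36 to 13.8 CPM in the others. Of 4 ketone body genes, 3 varied. Oxct1, which uses ketone bodies, had 217 to 265 CPM and Bdh1, which interconverts them, had 3.95 to 8.91 CPM.

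Of 13 PPAR relatives and cofactors tested, 11 varied. The corepressor Ncor1 had 228 to 334 CPM. The PPAR partners Rxra and Rxrb had 85.9, 47.4, 39.7 and 41.4 CPM and 60.8, 40.3, 39.4 and 50.7 CPM, both highest in tumor 1. The coactivator Ppargc1a had 4.62, 21.3, 14.6 and 13.2 CPM, lowest in tumor 1 like Ppara. Of 8 other Ppara targets tested, 7 varied. Txnip, an inhibitor of thioredoxin, had 631 to 899.7 CPM, the lipid droplet protein Plin2 160.4 to 271 CPM, and Pex11a, which divides peroxisomes, 41.7 to 55.1 CPM. Angptl4, an inhibitor of Lpl, had 42.6, 13.4, 12.2 and 30.9 CPM, Pdk4, which restrains glucose oxidation, 9.68, 7.67, 16.3 and 7.14 CPM, and Vnn1, a pantetheinase, 13.1, 19.2, 11.1 and 27.5 CPM, each with its own order of tumors. The liver targets Cyp4a10 and Cyp4a14 had 0 counts, and Fgf21 was at or under 3 counts in all tumors.

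**Figure D5:**
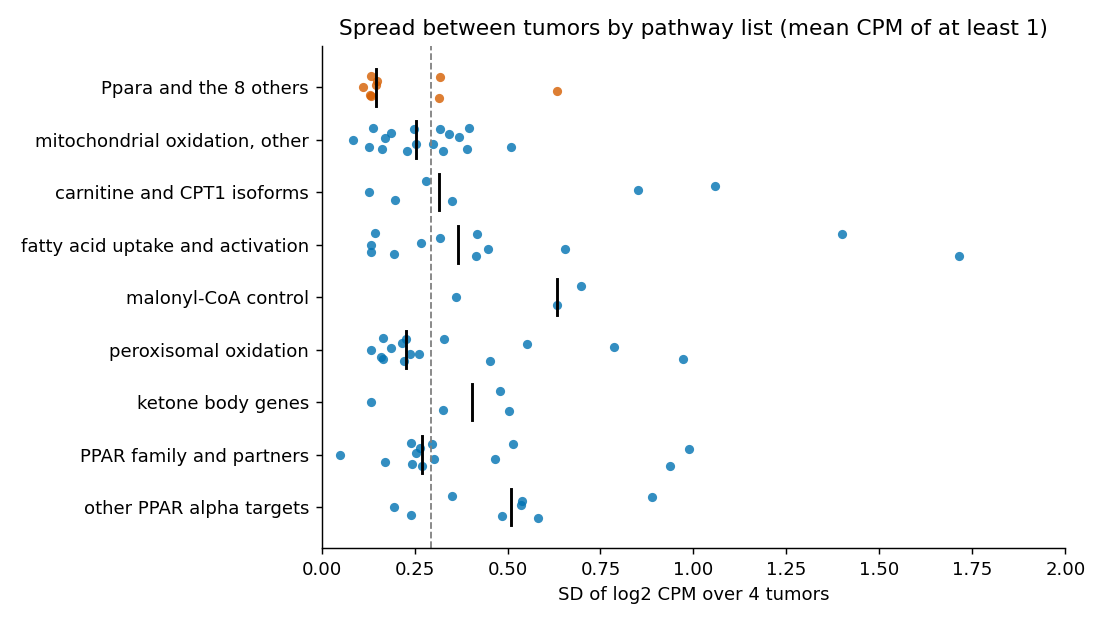
SD of log2 CPM over 4 tumors for each gene averaging 1 CPM or more (points), by list, with the list's median (black line) and the median of all genes tested (dashed line, 0.29). The median of Ppara and the 8 others is 0.15, and that of the malonyl-CoA genes is 0.63.

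Likeness of pattern was measured as the root mean square difference of mean-centered log2 CPM over the 4 tumors, among 10261 genes averaging 10 CPM or more. Closest to Ppara were Kdm5d (0.083), Rgcc (0.094), Dpep2 (0.094), Cpm (0.12) and Arhgef38 (0.13), and Kdm5d, a Y-linked histone demethylase, had 29.6, 58.1, 46.6 and 82.7 CPM. With 12 to 31 counts of Ppara in a tumor, these ranks rest on few reads. Closest to the mean profile of the 8 other genes were Ccdc32 (0.0077), Api5 (0.0095), Pttg1ip (0.013), Pard3 (0.013) and AW146154 (0.013). That profile was nearly flat, and 1023 genes lay within 0.1 of it, so its nearest genes are not a distinct group.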

How the data were processed

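RNA from single-cell suspensions of 4 macrodissected tumors was made into stranded poly(A) libraries from 500 ng each. The authors' deposited tables hold raw counts per Ensembl gene, with no normalization. The submitters' processing notes name bcl2fastq 2.17, Cutadapt 1.4.2, HISAT2, featureCounts 1.4.4, edgeR and the genome build mm10. The strand setting and annotation release of the counting are not given in the sources used here. The combined and single-tumor tables were equal in 156068 of 156068 values. The authors also deposited log2 normalized counts, used here as an alternative only.

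Totals were scaled by TMM factors (edgeR 4.0.16, R 4.3.3), and log2 CPM used 0.5 added to each count. Genes averaging 1 CPM or more were tested for spread between tumors by the deviance of an edgeR Poisson fit with an intercept only (3 degrees of freedom, Benjamini-Hochberg over 14225 genes, threshold 0.05), a step tested on simulated data. Gene pairs were compared by the two-sided exact permutation test of sign flips within tumors. At this depth 3 counts equal 0.330 to 0.370 CPM, and intervals and floors cover counting error only, since reads carried no molecular identifiers. Positions and exon lengths are from GENCODE M21 (GRCm38), where 37693 of 39017 IDs were found. Copies are transcripts of another gene sharing at least 80 nt at 97% identity (BLAST 2.17.0).

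Genes and lists were chosen with earlier results of these data known. Named were the 9 genes, the family pairs and, per list, the 3 highest per kilobase, the 3 with the largest SD at 10 CPM or more, and those at or under 3 counts in all tumors, with the 5 genes of most similar pattern. The values of Myh7, Gm13910, Scp2-ps2, Gm6166 and Dvl2 were added after they were seen. Alternatives were DESeq2 1.42.0 size factors, library size, other filters, pseudocount 2, other lengths, the deposited log2 values and leaving out each tumor. The other engineered allele of KP mice and the values of some list genes are not reported here.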

Additional observations from a re-analysis of the deposited data

Results flagged for a closer look

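Of 94 values tested for 1 tumor standing apart (Dixon's ratio on log2 CPM or on a log2 difference), 7 did, where chance flags about 1 in 20, or 4.7 of them. These values do not cover every list gene, and over all 78 tested genes of the other lists 6 had 1 tumor apart. Among the 9 genes themselves none did, but 2 of their differences did. Acadl minus Acadm per kilobase was 2.67 (log2) in tumor 3 and 1.77 to 1.90 in the others, and Acadl minus Acadvl was 1.95 in tumor 3 and 1.43 to 1.51 in the others. Both involve Acadl and tumor 3, so these differences are not independent of each other.

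Tumor 3 was also high for Decr1, the dienoyl-CoA reductase of unsaturated chains, with 96.1 CPM against 74.3 to 76.9 CPM. Tumor 2 was low for Ech1, a dienoyl-CoA isomerase, with 61.4 CPM against 82.3 to 85.8 CPM. Among the values covered, tumor 1 stood apart for 3 genes. It was low for Cd36 with 1039 CPM against 1801 to 1891 CPM and for Acaca with 60.1 CPM against 136 to 152 CPM. It was high for the nuclear receptor Esrra, with 23.0 CPM against 15.3 to 16.0 CPM. The count of Acaca is uncertain if reads from the stretch it shares with an unlisted gene were discarded.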

How the results depend on the processing

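The count of 7 genes varying beyond counting noise was also 7 with DESeq2 size factors, library size only, no filter, Pearson's chi-square and, chosen after the data were seen, with Gm13910 added to Hadhb, and it was 6 of 8 among genes averaging 10 CPM or more. The share of all genes tested moved more, to 53.8% with no filter and 85.3% among genes averaging 10 CPM or more, so the nearness of both shares holds for the fits with the same filter and 4 tumors. Leaving out 1 tumor gave 5 to 7 genes (62.4% of all genes without tumor 1 or 3, 71.3% without tumor 2 and 71.9% without tumor 4), 54 to 64 varying genes in the other lists, 10 to 11 family comparisons and 6 to 7 neighbor pairs beyond their spread, and a mean summed level of 768 to 794 CPM. Acadm minus Acadvl became 0.16 and Cpt1a minus Cpt2 0.69 (log2) with the longest transcript and also with the longest principal transcript, which was added after the data were seen and gave 0.15 for Slc25a20 minus Cpt2. Slc25a20 minus Cpt2 was -0.48 with the longest transcript. Hadha minus Hadhb was 1.82 with the longest and 0.72 with the longest principal transcript, and 0.28 with Gm13910 added. The principal length and the added counts were not combined, so this order is uncertain. These shifts follow from the lengths and counts put in. Ppara rests on 12 to 31 counts in a tumor, and its interval is given with its values. No pairing of samples between groups was possible because the design has 1 group, and only gene pairs were compared within tumors.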
